A study of Mus musculus with 6 samples.

Results

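Myosin heavy chains are the motor proteins of the thick filament, and the skeletal and cardiac chains are the ones built into the sarcomeres of striated muscle. The 8 genes described here are Myh1, Myh2, Myh3, Myh4, Myh6, Myh7, Myh7b and Myh8. They were taken by name, and every probe set annotated with exactly 1 of these symbols was used, which gave 12 of the 45101 probe sets on the array and 8 of the 18194 genes with a symbol of their own. Another 2 probe sets are annotated to both Myh6 and Myh7 and were left out. Myh1 is measured by 3 probe sets, Myh4 and Myh6 by 2 each and the other genes by 1, and where there are several they are lettered from the brightest (A) down.

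The arrays compared ovariectomized mice given placebo pellets (OVX, n = 3) with ovariectomized mice given estradiol pellets (OVX + E2, n = 3). All were C57BL/6 females that lost their ovaries at 4 months of age, and the pellets were in place for 60 days and held 0.18 mg of E2 in the treated group. Each sample was read on 1 Affymetrix Mouse Genome array. The sample labels name the tissue as left ventricle, whereas the title of the series says skeletal muscle and the methods of the study say soleus, a postural muscle of the lower leg. Nothing in the sources used here says that each array held RNA of a separate mouse. The p-values below thus set each group difference against the variation among these particular samples, and that variation may be technical.

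An adult limb muscle fibre is known by its main myosin heavy chain. Myh7 encodes the slow type I chain, Myh2 the fast IIa chain, Myh1 the fast IIx chain and Myh4 the fast IIb chain, in order of increasing shortening speed, and the mouse soleus is known as a mixture of mainly type I and IIa fibres with few or no IIb fibres. Myh3 and Myh8 are the embryonic and perinatal chains, used in developing and regenerating muscle. Myh6 encodes the alpha chain of the heart, where in the adult mouse it outweighs the beta chain that is also made from Myh7, and Myh7b is an ancient slow chain whose transcript gives little protein in most muscles.

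Myh3, Myh2, Myh1, Myh4 and Myh8 lie in that order on chromosome 11 of assembly GRCm38.p6, all on the forward strand, Myh3 at 67078273 to 67102291, Myh2 at 67171027 to 67197517, Myh1 at 67200102 to 67224577, Myh4 at 67237812 to 67260447 and Myh8 at 67277124 to 67308634. Only 2584 bases separate the end of Myh2 from the start of Myh1. Myh6 (54941921 to 54968017) and Myh7 (54970684 to 54994626) are neighbours on the reverse strand of chromosome 14, and Myh7b lies on chromosome 2 at 155611243 to 155634307. Where in its transcript each probe set lies was not analysed here.

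The promoters of the adult fast genes and of Myh8 are shown because these neighbours share a stretch of sequence, while Myh4 and Myh1 spread very differently over the arrays, as described further on. Each line is the 250 bases before the gene's start in RefSeq (GRCm38.p6, forward strand), and the capitals mark the longest run of bases that all 4 have in common. The windows are chr11:67170777-67171026 for Myh2, chr11:67199852-67200101 for Myh1, chr11:67237562-67237811 for Myh4 and chr11:67276874-67277123 for Myh8.
Myh2: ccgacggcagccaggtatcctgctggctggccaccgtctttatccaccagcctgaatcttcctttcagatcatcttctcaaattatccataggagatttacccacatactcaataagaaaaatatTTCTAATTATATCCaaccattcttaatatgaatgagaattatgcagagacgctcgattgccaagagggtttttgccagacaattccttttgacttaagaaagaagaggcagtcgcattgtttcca
Myh1: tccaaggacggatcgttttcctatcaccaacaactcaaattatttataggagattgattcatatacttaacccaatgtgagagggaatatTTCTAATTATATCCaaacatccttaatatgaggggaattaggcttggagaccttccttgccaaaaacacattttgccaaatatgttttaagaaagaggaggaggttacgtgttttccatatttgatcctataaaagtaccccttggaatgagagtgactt
Myh4: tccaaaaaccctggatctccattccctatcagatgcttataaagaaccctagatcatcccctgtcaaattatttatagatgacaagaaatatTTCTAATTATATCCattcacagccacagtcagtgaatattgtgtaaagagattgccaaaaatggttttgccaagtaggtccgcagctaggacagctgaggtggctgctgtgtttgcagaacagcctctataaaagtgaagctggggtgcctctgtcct
Myh8: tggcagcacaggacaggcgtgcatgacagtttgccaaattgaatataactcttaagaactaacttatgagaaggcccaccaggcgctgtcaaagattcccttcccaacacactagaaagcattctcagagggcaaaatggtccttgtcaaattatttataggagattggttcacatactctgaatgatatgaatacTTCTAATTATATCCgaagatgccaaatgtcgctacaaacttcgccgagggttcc

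The shared run, TTCTAATTATATCC, is 14 bases long and was found, with both strands searched, in 4 of the 32851 promoter windows of the same table (0.0122%), which are those of these 4 genes. It was picked as the longest run that these windows share, so its presence in them was set in advance and its rarity is no test of a role. Its first base lies at -125 from the start in Myh2, at -160 in Myh1, at -158 in Myh4 and at -54 in Myh8. In Myh1, Myh2 and Myh4 the common run extends to 20 bases. Over the whole window the closest pair was Myh1 and Myh4, with 57.55% identical bases in their alignment, and Myh2 and Myh1 had 52.48%. The TATA box TATAAA, found on either strand in 12.368% of all windows, occurred in 4 members, at -32 and -208 in Myh1, at -31, -179 and -213 in Myh4, at -29 in Myh3 and at -96 in Myh8. The E-box CANNTG, the core that MyoD family factors bind, was present in 66.217% of all windows and in those of Myh3, Myh4, Myh6, Myh7, Myh7b and Myh8, with 2 copies in Myh4 and in the window of the more downstream start of Myh7. A CArG box, the binding motif of serum response factor, was found in Myh4 at -104 and in 1.467% of all windows. The MEF2 motif was searched only in a strict form, CTA, then 4 bases of A or T, then TAG. That form was found in 0.508% of all windows and in none of the members. Looser forms were not searched, and the windows of Myh1, Myh4 and Myh8 hold TTATTTATAG, which differs from it in the first base. The TATAAA matches at -208 in Myh1, -179 in Myh4 and -96 in Myh8 are on the reverse strand and lie within that string. The estrogen response element GGTCANNNTGACC, present in 0.064% of all windows, had no match in these windows, and its arm GGTCA, present in 35.241%, had a match in Myh7b at -46 and in the window of the more upstream of the starts of Myh7 at -227. These are matches of letters in a short window and no measure of binding. The windows of Myh3 (chr11:67078050-67078299) and Myh6 (chr14:54966608-54966857) reach into the gene limits given above. Their positions thus count from another start than the gene's outer end.

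**Figure D1:**
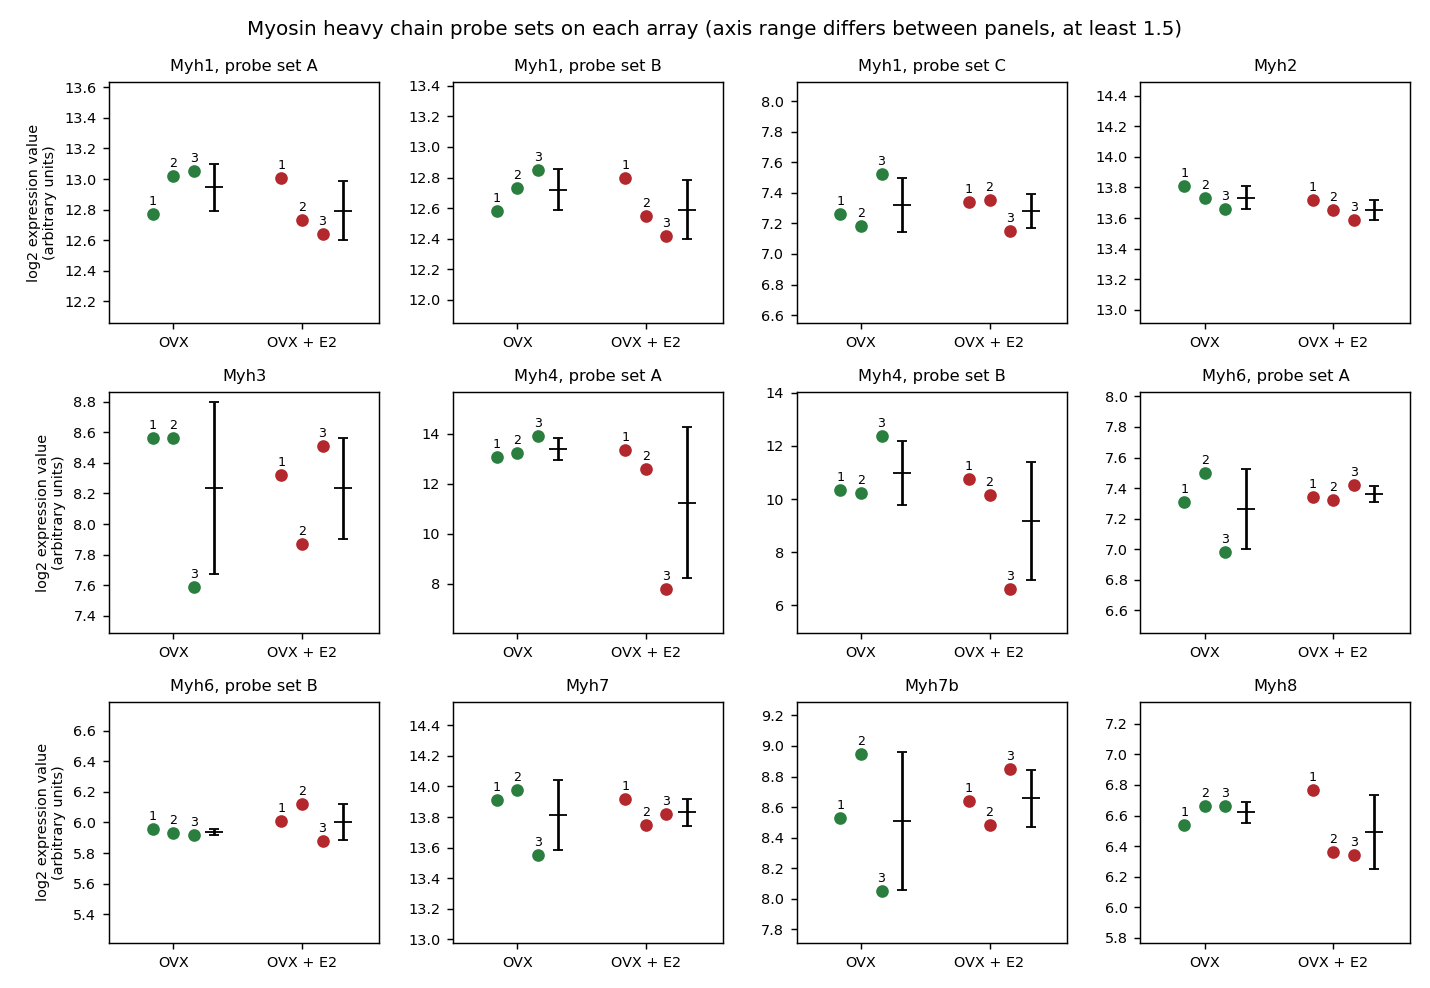
Deposited log2 expression values (vertical axis, arbitrary units) of the 12 myosin heavy chain probe sets on each array, with 1 numbered point per array, OVX in green and OVX + E2 in red, and the group mean ± SD in black beside them. The groups overlap in every panel, and the points of Myh4 spread over 6.12 (probe set A) and 5.76 (probe set B), with OVX + E2 replicate 3 at the bottom.

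Values are given on the deposited log2 scale, on which a difference of 1 is a doubling for bright probe sets and differences of dim ones are compressed. A probe set's value also depends on its probes, so values of different probe sets are not compared as amounts. As a check of the tissue, each gene was placed by the percentile of its brightest probe set among all probe sets. Of 15 skeletal-muscle-restricted genes, 13 were in the top 5% and all were at the 92.8th percentile or above. The 9 measured heart-restricted genes, among them Nppa, Myl7 and Tnni3, lay between the 26.3rd and the 62.2nd percentile, and none was in the top 5%. Myh6, the main chain of the adult mouse heart, lay at the 66.1st percentile with probe set A and at the 2.77th with probe set B. The defining markers of heart muscle were thus not bright on these arrays, against the labels, and the samples are called here by their treatment.

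None of the 12 probe sets passed the study's call rule, an unadjusted p of 0.001 or less by limma, which 0.213% of all probe sets passed in the fit made here (96 of 45101). The count that the study reported at this rule was higher, and the reason was not examined. None passed an unadjusted p under 0.05 either, which 13.8% of all probe sets did, or an adjusted p under 0.05, which 0.0% did. In none of them were the 3 arrays of the groups apart without overlap, as they were in 21.2% of all probe sets. With E2, 8 were lower and 4 higher on the means, where quantile normalization and cyclic loess each gave 5 lower. The median difference was -0.06, beside -0.0049 over all probe sets, of which 52.28% were below 0. In a fit of only the probe sets above the median brightness, 7 of 10 members were lower. The median over all probe sets in that fit was -0.0561. Among the 12 members as deposited, the smallest unadjusted limma p was 0.142. Their smallest Benjamini-Hochberg p, adjusted over all probe sets, was 0.480. By the exact two-sided permutation test over the 20 labelings of the arrays, in which no p under 0.1 is possible, the members ranged from 0.2 to 1.0. Members did not spread over the arrays evenly. OVX + E2 replicate 3 held the lowest value of 8 probe sets and the highest of 0, and OVX replicate 3 held the highest of 5 and the lowest of 4.

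Myh4, the IIb chain, had the widest spread. Probe set A read 13.07, 13.23 and 13.90 in the OVX arrays and 13.35, 12.60 and 7.78 in OVX + E2. Probe set B read 10.33, 10.23 and 12.37 in the OVX arrays and 10.74, 10.15 and 6.61 in OVX + E2. In both, OVX replicate 3 was highest and OVX + E2 replicate 3 lowest by far, while OVX + E2 replicate 1 was above OVX replicates 1 and 2, so that the groups overlapped. From lowest to highest array the values spanned 6.12 and 5.76, the widest and the next widest of all 45101 probe sets, whose median span was 0.183. On OVX + E2 replicate 3, probe set A lay at the 78.4th percentile of that array and probe set B at the 31.2nd, against 99.7 or above and 96.6 or above on the other 5 arrays.

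The group means of Myh4 were 13.40 ± 0.440 in the OVX arrays and 11.24 ± 3.02 in OVX + E2 for probe set A (SD, n = 3 each). The difference was -2.15 (SE 1.32, 95% interval -5.27 to 0.96). Its limma p was 0.146 unadjusted and 0.484 adjusted. Probe set B had 10.98 ± 1.21 and 9.17 ± 2.23 (SD, n = 3 each), with a difference of -1.81 (SE 1.10, interval -4.40 to 0.78) and a limma p of 0.142, adjusted 0.480. The exact permutation p was 0.3 for probe set A and 0.4 for probe set B. For both probe sets the difference was smaller in size than the SD of the OVX + E2 arrays and larger than that of the OVX arrays. It rested on OVX + E2 replicate 3. Without that array it was -0.42 (interval -1.16 to 0.32) for probe set A and -0.53 for probe set B, and without both arrays numbered 3 it was -0.17 (interval -0.71 to 0.37) and 0.16 (interval -0.26 to 0.59). Probe set B had -1.11 when OVX replicate 3 alone was left out. Probe set A lay at the 99.7th percentile or above on every array but OVX + E2 replicate 3, although mouse soleus is known to have few or no IIb fibres. The reason for this was not tested, nor were other differences in what the samples held. In muscle samples of this kind, fewer fibres of a type and less RNA per fibre cannot be told apart.

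**Figure D2:**
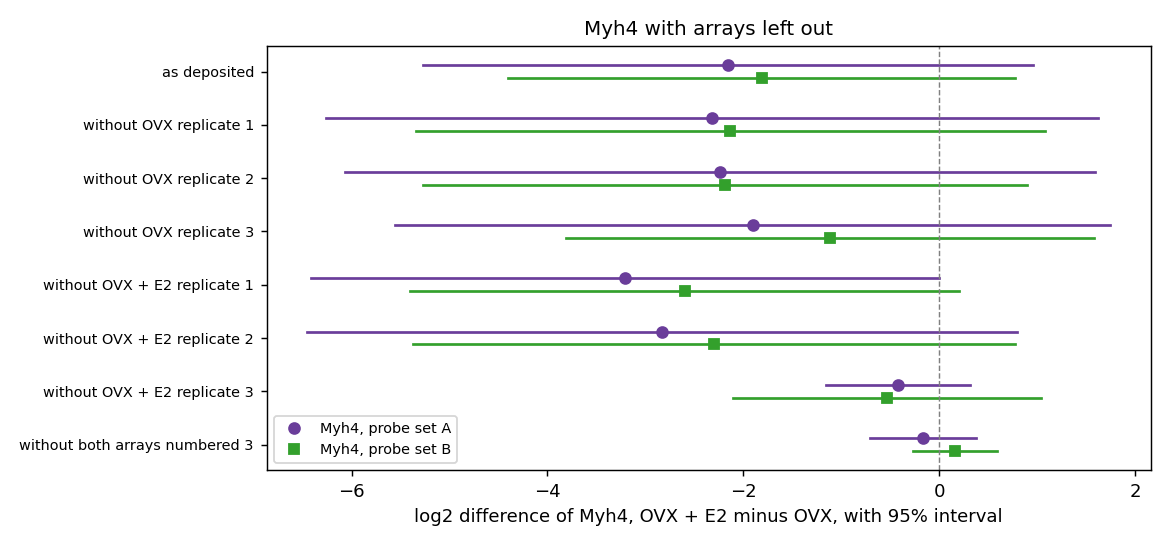
Difference of Myh4 between OVX + E2 and OVX (horizontal axis, log2) with its 95% interval for probe sets A (purple circles) and B (green squares), in all 6 arrays and with the arrays named at the left taken out. It lay between -3.21 and -1.11 in every fit that held OVX + E2 replicate 3, and between -0.53 and 0.16 in those without it.

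Myh1, the IIx chain, varied far less. Probe set A read 12.77, 13.02 and 13.05 in the OVX arrays and 13.01, 12.73 and 12.64 in OVX + E2, and probe set B read 12.58, 12.73 and 12.85 in the OVX arrays and 12.80, 12.55 and 12.42 in OVX + E2. OVX replicate 3 was the highest and OVX + E2 replicate 3 the lowest in both, as in Myh4, but the span was 0.40 and 0.43. The differences were -0.15 (SE 0.112, interval -0.41 to 0.11) and -0.13 (SE 0.106, interval -0.38 to 0.12), with adjusted limma p-values of 0.554 and 0.590. Their size depended on the arrays and the scaling. It was -0.24 and -0.20 without OVX replicate 1, -0.10 and -0.06 without OVX replicate 3, -0.26 and -0.23 without OVX + E2 replicate 1 and -0.07 and -0.05 without OVX + E2 replicate 3, and probe set A had -0.03 with quantile normalization and -0.02 with cyclic loess. By its name probe set A holds probes that may match transcripts of other genes as well, so for such similar genes its values may be mixed. The dim probe set C read 7.26, 7.18 and 7.52 in the OVX arrays and 7.34, 7.35 and 7.15 in OVX + E2, with a difference of -0.04 (SE 0.0972).

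Myhas, an antisense transcript at 67224196 to 67237281, overlaps the end of Myh1 and reaches to 530 bases before the start of Myh4. It read 10.18, 10.20 and 10.28 in the OVX arrays and 10.25, 10.17 and 10.08 in OVX + E2, a span of 0.20, and its difference was -0.05 (SE 0.0546, limma p 0.357). The probe set of this neighbour of Myh4 thus spread far less than its own.

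Myh2, the IIa chain, was the steadiest of the bright chains. It read 13.81, 13.73 and 13.66 in the OVX arrays and 13.72, 13.65 and 13.59 in OVX + E2. Its means were 13.74 ± 0.0772 and 13.66 ± 0.0641 (SD, n = 3 each), a difference of -0.08 (SE 0.0546, interval -0.21 to 0.05) with a limma p of 0.193, adjusted 0.530. The lowest array was again OVX + E2 replicate 3, but the highest was OVX replicate 1. With quantile normalization or cyclic loess of the arrays, the sign of this difference turned (0.00 and 0.05). The brightest probe set of each array read 14.04 to 14.19, so Myh2 and Myh7 lay close to the upper end of the scale.

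Myh7, the slow chain, read 13.91, 13.98 and 13.55 in the OVX arrays and 13.92, 13.75 and 13.82 in OVX + E2. OVX replicate 3, the array highest in Myh4, was lowest here, and the other 5 arrays lay between 13.75 and 13.98. The difference was 0.02 (SE 0.112, interval -0.24 to 0.29), with a limma p of 0.861, adjusted 0.943. Without OVX replicate 3 it was -0.11. Myh7b had the same lowest array, with 8.53, 8.95 and 8.05 in the OVX arrays and 8.64, 8.48 and 8.85 in OVX + E2. Its difference was 0.15 (SE 0.214, interval -0.36 to 0.65), and -0.08 without OVX replicate 3.

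The developmental chains did not differ beyond their spread. Myh3 read 8.56, 8.56 and 7.59 in the OVX arrays and 8.32, 7.87 and 8.51 in OVX + E2, with OVX replicate 3 lowest. Its difference was 0.00 with a wide interval (SE 0.283, -0.67 to 0.67), and -0.46 (interval -0.79 to -0.13, unadjusted limma p 0.0137) without both arrays numbered 3. Myh8 read 6.54, 6.66 and 6.66 in the OVX arrays and 6.77, 6.36 and 6.34 in OVX + E2, at the 28.5th percentile, with a difference of -0.13 (SE 0.114, interval -0.40 to 0.14). Without OVX + E2 replicate 1, its highest array, this was -0.27 with an unadjusted limma p of 0.0028. The cardiac chain Myh6 read 7.31, 7.50 and 6.98 in the OVX arrays and 7.34, 7.32 and 7.42 in OVX + E2 with probe set A, and from 5.88 to 6.12 over all arrays with probe set B. The differences were 0.10 (SE 0.121, interval -0.18 to 0.39) and 0.06 (SE 0.0612, interval -0.08 to 0.21).

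**Figure D3:**
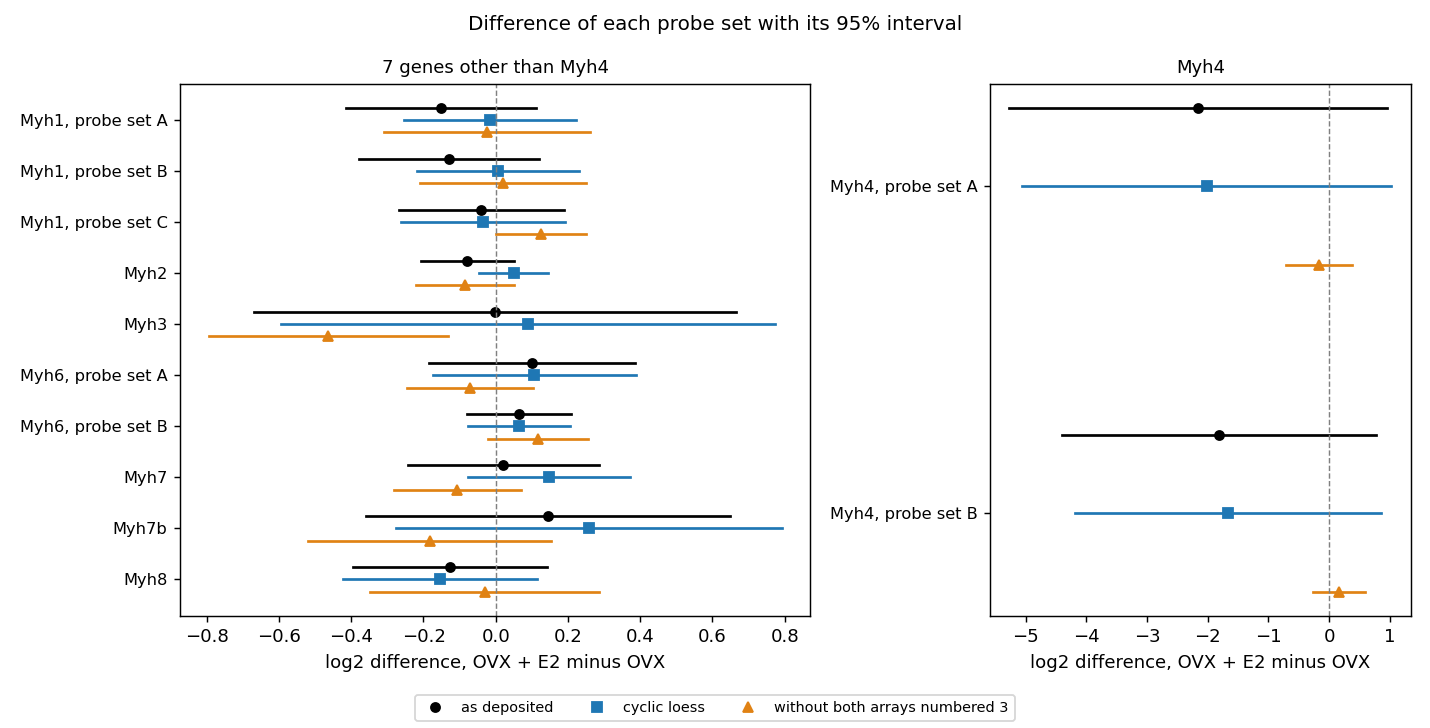
Difference between OVX + E2 and OVX (horizontal axis, log2) with its 95% interval for each probe set, as deposited (black circles), after cyclic loess (blue squares) and without both arrays numbered 3 (orange triangles); the Myh4 panel has a wider axis. All intervals as deposited and after cyclic loess hold 0, and without both arrays numbered 3 those of Myh1 probe set C (0.13) and Myh3 (-0.46) do not.

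Genes of the thin and thick filaments and of calcium handling that go with the fast chains shared their highest array, and mostly their lowest, with Myh4. The list was drawn up with earlier results of these arrays known. Each of its 12 fast-fibre partner genes peaked on OVX replicate 3. Of these, 10 had their lowest value on OVX + E2 replicate 3 and 2 on OVX + E2 replicate 2. On OVX replicate 3, 8 of 14 genes of thick filament assembly and turnover and 10 of 27 regulators of myosin heavy chain genes peaked too. None of the 7 endothelial markers did, and all 7 peaked on OVX replicate 2. Lowest on OVX + E2 replicate 3 were also 14 of the 27 regulators, 5 of the 14 thick filament genes and 3 of 5 smooth muscle markers. Only 1 of 11 slow-fibre partners and 1 of 7 endothelial markers were. The shares of all genes highest or lowest on these arrays were not counted. Averaged over the 12 partners, the deviation from each gene's mean was 0.09, 0.17 and 0.76 in the OVX arrays and 0.20, -0.26 and -0.96 in OVX + E2. All 12 had a lower mean with E2, a median difference of -0.40, beside -0.01 over all 18193 genes with a probe set kept. By the brightest probe set of each gene these partners were bright, 11 of them in the top 5%. Their differences come from the probe set kept for each gene, which can be dimmer, as for Tnni2 (7.32 to 7.82 over the arrays). In the fit of only the probe sets above the median brightness, 70.946% of all genes were below 0, with a median of -0.07. At an unadjusted limma p under 0.05, 18.3% of the genes in that fit were lower and 2.52% higher, beside 3 and 0 of the partners. As deposited, 4 of the 12 were lower and 0 higher at that p, where 13.0% of all genes were lower and 6.01% higher. The balance over all genes depended on the scaling, with 4.12% lower and 5.40% higher after quantile normalization and 5.06% and 4.60% after cyclic loess. The 4 were Casq1, the calsequestrin of fast fibres (-0.51, SE 0.175), Mylk2, the kinase of the myosin regulatory light chain (-0.73, SE 0.264), Myl1, an essential light chain (-0.27, SE 0.0996), and Tnnc2, fast troponin C (-0.16, SE 0.0661), and their adjusted p-values were from 0.323 to 0.362. Without both arrays numbered 3, 12 were still below 0 with a median of -0.13, and 0 had a p under 0.05. With quantile normalization 12 were below 0 (median -0.27) and 1 had a p under 0.05, and with cyclic loess 12 were below 0 (median -0.26) and 0 had. Leaving out OVX + E2 replicate 2 or OVX + E2 replicate 3 alone also left 0, leaving out OVX replicate 3 left 2, and leaving out OVX + E2 replicate 1 gave 11.

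The slow-fibre partners mostly shared their lowest array with Myh7. Of 11 genes, 10 were lowest on OVX replicate 3. The mean deviation of the list was 0.10, 0.14 and -0.29 in the OVX arrays and 0.00, -0.02 and 0.05 in OVX + E2. This was not particular to slow-fibre genes, since 4 of 5 fat cell, 3 of 3 Schwann cell and 5 of 7 endothelial markers were lowest there too. So were 3 of 7 leukocyte, 1 of 5 smooth muscle and 0 of 3 erythroid markers. The share of all genes lowest on that array was not counted. With E2, 5 slow-fibre partners were below 0 and 6 above, their median was 0.01, and 0 passed an unadjusted p under 0.05. The widest ranges were those of Casq2, the slow and cardiac calsequestrin, which read 11.52, 11.66 and 10.93 in the OVX arrays and 11.36, 11.47 and 11.70 in OVX + E2, and of the stretch-responsive Ankrd2, which read 12.49, 12.51 and 11.98 in the OVX arrays and 12.34, 12.32 and 12.70 in OVX + E2. The balance of this list turned with the arrays and the scaling used. Without both arrays numbered 3, 11 of 11 were below 0 (median -0.12) and 4 of them had a p under 0.05, and with cyclic loess 1 was below 0 (median 0.15).

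**Figure D4:**
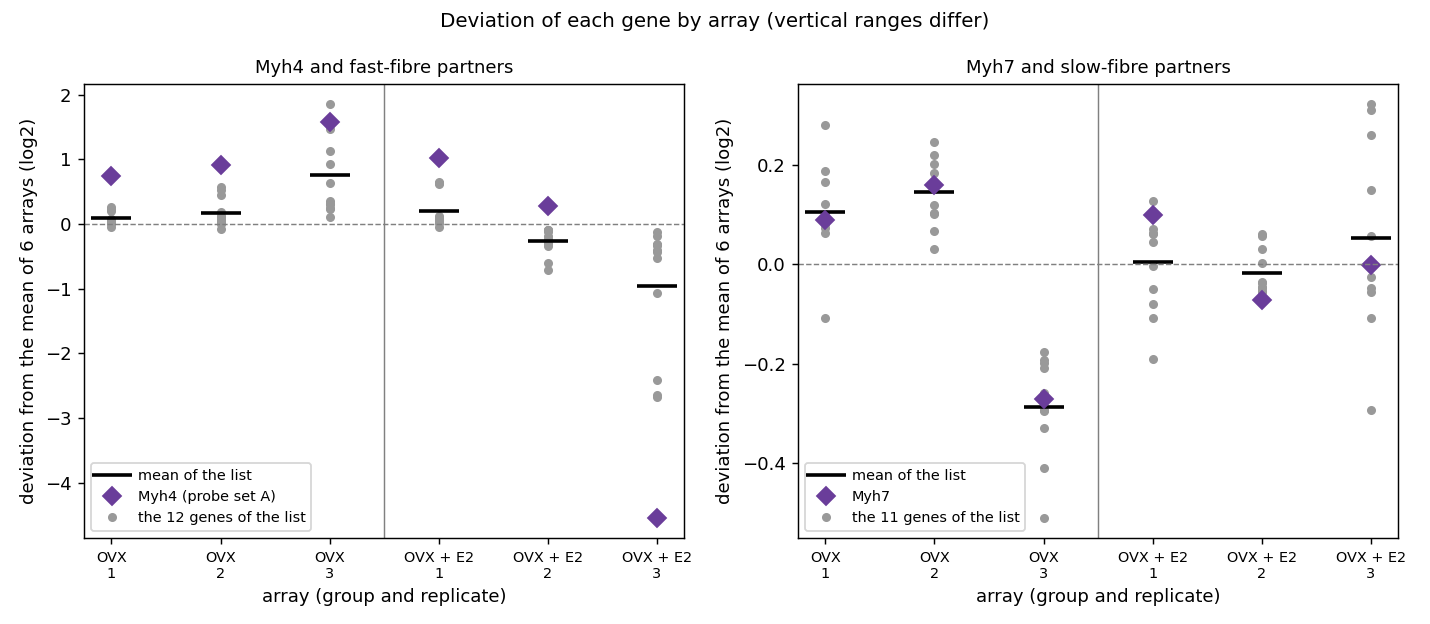
Deviation of each gene from its mean over the 6 arrays (vertical axis, log2; the ranges of the panels differ) on each array, for Myh4 probe set A with the 12 fast-fibre partners (left) and Myh7 with the 11 slow-fibre partners (right). Purple diamonds are the myosin, grey points the partners and black bars the list's mean, which at the left peaks on OVX replicate 3 (0.76) and bottoms on OVX + E2 replicate 3 (-0.96), and at the right is lowest on OVX replicate 3 (-0.29).

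The genes whose values were most like those of Myh4 were sought among 242 genes spanning at least 1 over the 6 arrays. For probe set A the highest Pearson correlations belonged to Pvalb (0.976), Xist (0.969), Actn3 (0.967), Ctnnb1 (0.966) and Eif4a1 (0.960). For probe set B they belonged to Pvalb (0.983), Rtn2 (0.981), Actn3 (0.980), Pygm (0.969) and Cacng6 (0.968). Pvalb encodes parvalbumin, the calcium buffer of fast fibres, Actn3 the alpha-actinin of fast fibres, Xist the RNA that silences an X chromosome and Pygm muscle glycogen phosphorylase. These points share the low OVX + E2 replicate 3, and without it the correlation with probe set A was 0.994 for Pvalb and 0.996 for Actn3 but 0.615 for Xist, 0.123 for Ctnnb1 and 0.479 for Eif4a1. Pvalb read 12.52, 12.79 and 13.73 in the OVX arrays and 12.87, 12.03 and 9.61 in OVX + E2. Actn3 read 12.23, 12.57 and 13.57 in the OVX arrays and 12.65, 11.67 and 9.33 in OVX + E2. The order of the 6 arrays in both genes was that of Myh4 probe set A.

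Genes that assemble the thick filament or turn it over stood between these patterns. Of 16 listed, 14 had a probe set of their own, and of these 8 were below 0 and 6 above with a median of -0.17, and 3 were lower at an unadjusted p under 0.05 and 0 higher, beside 13.0% and 6.01% of all genes. They were Trim54, a ubiquitin ligase of the sarcomere also called MuRF3 (-0.26, SE 0.0555), Myom1, which crosslinks thick filaments at the M-band (-0.23, SE 0.0625), and Unc45b, the chaperone that folds myosin heads (-0.21, SE 0.0822). In each of them the 3 OVX arrays lay above the 3 OVX + E2 arrays, as in 21.2% of all probe sets without overlap in either direction. In the fit of only the probe sets above the median brightness, 8 of 13 were below 0 and 3 lower at that p. Of all genes in that fit, 70.946% were below 0 and 18.3% lower at that p. With cyclic loess Trim54 was the 1 of the list lower at that p (-0.11), beside 5.06% of all genes, with Ttn, the gene of titin, higher (0.59) and a list median of -0.03. Without both arrays numbered 3 the median was -0.06, Trim54 had -0.18 (p 0.0118), and Myom1 (p 0.0524) and Unc45b (p 0.106) no longer passed, while Myom3 and Hsp90aa1 did, both lower, beside 11.1% of all genes.

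Of 30 listed regulators of myosin heavy chain genes, 27 were measured and 20 of them were below 0, with a median of -0.11, 7 lower and 0 higher at an unadjusted p under 0.05, beside 53.966% of all genes below 0 and 13.0% lower at that p. In the fit of only the probe sets above the median brightness, 20 of 24 were below 0 and 7 lower at that p. Of all genes in that fit, 70.946% were below 0 and 18.3% lower at that p. The list's median was -0.03 with quantile normalization and with cyclic loess, and -0.02 without both arrays numbered 3. Pura, a single-stranded DNA binding protein, was the member of this list that passed 0.001. It read 9.83 or more on each OVX array and 9.62, 9.42 and 9.37 in OVX + E2, without overlap, and its difference was -0.46 (SE 0.0761, adjusted limma p 0.308). Hdac5, a repressor of MEF2, had -0.23 (SE 0.0522), Tead1, which binds muscle CAT elements, -0.18 (SE 0.0494) and Mef2c -0.31 (SE 0.0891). Pura did not pass 0.001 with quantile normalization (-0.29, limma p 0.0034), with cyclic loess (-0.32, p 0.0018) or without both arrays numbered 3 (-0.40, p 0.0038). With cyclic loess 2 of the 27 were lower at a p under 0.05, beside 5.06% of all genes, and Hdac5 (-0.11), Tead1 (-0.03) and Mef2c (-0.17) were not among them. Without both arrays numbered 3, 5 were lower and 2 higher, beside 11.1% and 2.88% of all genes. Maf, chosen after its values were seen, had a span of 3.09, which ranked 9 among all probe sets. It read 8.29, 8.39 and 10.26 in the OVX arrays and 8.64, 7.71 and 7.17 in OVX + E2, with the same highest and lowest arrays as Myh4, and its difference was -1.14 (SE 0.577, adjusted limma p 0.412), and -0.17 without both arrays numbered 3.

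Of 11 genes of developing or regenerating muscle, 7 were below 0 and 4 above, with a median of -0.02, and Igf2, an insulin-like growth factor gene, was the 1 with a p under 0.05 (-0.19, SE 0.0756), beside 13.0% of all genes lower at that p. It did not pass with quantile normalization (-0.10), with cyclic loess (-0.11) or without both arrays numbered 3 (-0.18). Among 4 measured chains of smooth muscle and non-muscle myosin, Myh14 passed an unadjusted p under 0.05 (-0.19, SE 0.0771), but not with quantile normalization (-0.03) or cyclic loess (-0.04). Myh9, Myh10 and Myh11 had -0.04, 0.09 and -0.10 as deposited. Without both arrays numbered 3 all 4 were below 0. In that fit Myh14 (-0.26, limma p 0.0278) and Myh9 (-0.26, limma p 0.0339) passed, beside 11.1% of all genes lower at that p.

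Markers of other cell types were read on the same arrays. On OVX + E2 replicate 3 the mean deviation was -0.15 for 5 fat cell markers, -0.19 for 3 Schwann cell markers, 0.05 for 7 endothelial markers, 0.05 for 7 leukocyte markers, -0.27 for 5 smooth muscle markers and 0.35 for 3 erythroid markers. Of the erythroid markers Alas2 alone stood out there, with 9.26 against 7.68 to 8.52 on the other arrays. On OVX replicate 3 the same lists had -0.41, -0.25, -0.21, -0.06, -0.14 and -0.04. By group, 7 of 7 endothelial and 5 of 5 smooth muscle markers had lower means with E2, with medians of -0.07 and -0.16. Below 0 were 53.966% of all genes, and 70.946% in the fit of brighter probe sets. With cyclic loess these were 4 of 7 and 5 of 5, with medians of -0.01 and -0.05. Each result depended on 1 OVX array. Without OVX replicate 2, 1 of 7 endothelial markers was below 0 (median 0.10). Without OVX replicate 1, 2 of 5 smooth muscle markers were (median 0.02). Without both arrays numbered 3, all of both lists were, with medians of -0.27 and -0.16. The 9 dim heart-restricted genes all had higher means, with a median of 0.07, beside 46.034% of all genes, and 2 of them were lower with cyclic loess and 1 with quantile normalization. The part of these cell types in the values of the myosin heavy chains was not tested.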

How the data were processed

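Expression was measured on 6 arrays, 3 of OVX and 3 of OVX + E2, grouped by the treatment in the sample labels. The authors corrected the background, normalized with variance stabilization and normalization, combined the probes of a probe set with median polish (R 2.14.2 is named in their processing notes) and deposited log2 values, which were used without further normalization. Raw scans and detection calls were not used here, and precision is limited by having 6 arrays. Probe sets were named by the platform annotation (34958 with 1 symbol, 932 with several, 9211 with none), and positions and promoters are those of RefSeq GRCm38.p6.

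All probe sets were fitted with limma 3.58.1 (lmFit, eBayes; R 4.3.3) in a two-sided test, as OVX + E2 minus OVX with no covariate, with Benjamini-Hochberg adjustment over all of them. Calls used the study's unadjusted p of 0.001. For gene lists the probe set with the largest interquartile range stood for each gene, which left 18193 genes. The fit was tested on simulated data. From each list up to 4 genes in each direction at an unadjusted p under 0.05 are named by smallest p, or the 2 with the largest range where none passed, and for each member spanning 1 or more the 5 most correlated genes. The members and lists were chosen with earlier results of these data known. Alternatives were quantile, cyclic loess (3 iterations) and median centring, brighter probe sets only, an intensity trend, a replicate block, the brightest probe set per gene, and leaving out arrays.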

Additional observations from a re-analysis of the deposited data

How the results depend on the processing

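In each of the 13 other fits of the deposited values, 0 myosin heavy chain probe sets passed a p of 0.001, and 0 passed an adjusted p under 0.05. At an unadjusted p under 0.05 4 passed without OVX + E2 replicate 1 (Myh1 probe sets A and B, Myh4 probe set A and Myh8, all lower), 1 with OVX + E2 replicate 3 left out (Myh6 probe set B) and 2 without both arrays numbered 3 (Myh1 probe set C and Myh3), and 0 in the other fits, while 10.4%, 7.998% and 9.65% of all probe sets did in these 3 fits. Of all probe sets, 96 passed 0.001, against 31 with quantile normalization, 31 with cyclic loess, 164 with median centring, 30 among the brighter probe sets, 39 with an intensity trend, 37 without both arrays numbered 3 and 19 to 76 leaving out an array at a time. Deviations of the arrays from their group means correlated at -0.125, -0.2 and -0.342 between same-numbered arrays, and at -0.235 to 0.331 between the others. Such deviations sum to 0 within a group, so these values cannot decide whether the replicate numbers pair samples. With the replicate number as a block 21 of all probe sets and 0 members passed 0.001. With quantile normalization the sign turned for Myh1 probe set B (0.0086), Myh2 (0.0032) and Myh3 (0.1014), and with cyclic loess for the same probe sets (0.0076, 0.0497 and 0.0901). Without both arrays numbered 3 it turned for Myh1 probe sets B (0.0194) and C (0.1263), Myh4 probe set B (0.1647), Myh6 probe set A (-0.0705), Myh7 (-0.1065) and Myh7b (-0.1831). Leaving out an array at a time gave -0.1081 to 0.062 for Myh1 probe set C, -0.326 to 0.1795 for Myh3, -0.0407 to 0.2201 for Myh6 probe set A, -0.1118 to 0.1034 for Myh7 and -0.0841 to 0.3668 for Myh7b. Of the 6 lists of muscle genes 5 had a median below 0, and 3 to 6 did with an array left out, the lowest without OVX replicate 2. The causes of these changes were not tested. Probe-level background was not used here, so how far dim probe sets such as Myh8 and Myh6 probe set B stood above it is not known.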
